A study of Mus musculus with 6 samples.

Results

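The cells described here are Ly6c2- and Plac8-positive monocytes of the mouse aortic root. They numbered 146 of 17878 cell barcodes kept in 3 libraries of cells outside the lineage of smooth muscle cells (SMCs), and of 41759 kept in all 6 libraries of the study. They were chosen on their own RNA. Barcodes were kept at a minimum of 1000 unique molecular identifiers (UMIs) and 500 genes, with mitochondrial genes holding no more than 10% of UMIs, and a kept barcode was taken when it met 5 conditions. It held at least 5 UMIs of Tyrobp plus Fcer1g, the signalling adaptors of myeloid cells, and fewer than 5 UMIs of C1qa, C1qb and C1qc, the complement subunits made by tissue macrophages. It held at least 3 UMIs of Ly6c2 plus Plac8, fewer than 2 UMIs of the dendritic cell genes Cd209a and Flt3, and less than 1% of its UMIs from the neutrophil genes S100a8 and S100a9. These genes therefore describe the choice and are no result.

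The cells came from male mice aged 24 weeks in 3 groups: Klf4-floxed Marfan mice (Fbn1 C1041G/+ with Klf4 labelled floxed), Marfan mice (Fbn1 C1041G/+ with Klf4 labelled Control) and control mice (both genes labelled Control). The Fbn1 C1041G allele changes fibrillin-1 and is a mouse model of Marfan syndrome. Per the labels' protocols, aortic roots of 4 animals per group were combined and digested for an hour with Liberase and elastase. Cells were then sorted on tdTomato, the marker of the SMC lineage. Each fraction was captured with the Chromium 3' version 3 chemistry. All 3 groups were sorted this way, and the title of the study places the Klf4 deletion in SMCs. The labels name neither the Cre driver nor the dose of its inducer, nor which sorted cells carry a deleted allele. With 1 library per group and fraction, no difference between groups has a replicate check, animals within a group cannot be told apart, and no p-value is given. Intervals are 95% intervals for counting error only.

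Monocytes are made in bone marrow from progenitors shared with neutrophils, circulate, and enter tissue when endothelium and stroma display chemokines such as CCL2, the ligand of CCR2. The classical subset carries Ly6C, the surface protein encoded by Ly6c1 and Ly6c2, and carries high CCR2. In tissue these cells can die, leave, or take on features of macrophages or antigen-presenting cells. In aneurysm models they are studied as a source of cytokines, proteases and matrix proteins beside the resident macrophages of the adventitia. Digested tissue can also hold blood monocytes that were inside vessels, and the sort did not separate these.

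Ly6c2 is the Ly6C gene read in these cells. Its neighbour Ly6c1 encodes a near-identical protein, and the longest coding transcripts of the pair, at 822 and 844 bases, matched at 802 of 844 aligned positions. In GENCODE M21 on GRCm38, Ly6c2 spans chr15:75108158-75111970 and Ly6c1 spans chr15:75044018-75048830, both on the minus strand. Their last 300 bases, the end that a 3' library reads, matched at 93.5%, so some reads of 1 gene could have been assigned to the other or dropped. The stretches around both annotated starts (RefSeq, GRCm38.p6, minus strand, 5′ to 3′) are shown because the pair share most of this sequence while the levels of their RNA differed by cell class. The Ly6c2 stretch is chr15:75111888-75112049 and the Ly6c1 stretch is chr15:75048733-75048890. Capitals mark GAGGAAGT, a core of the kind bound by ETS factors such as PU.1, a factor of myeloid cells.
Ly6c2: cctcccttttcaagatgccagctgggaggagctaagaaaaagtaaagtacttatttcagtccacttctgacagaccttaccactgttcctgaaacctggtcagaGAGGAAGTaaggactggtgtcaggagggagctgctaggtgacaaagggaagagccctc
Ly6c1: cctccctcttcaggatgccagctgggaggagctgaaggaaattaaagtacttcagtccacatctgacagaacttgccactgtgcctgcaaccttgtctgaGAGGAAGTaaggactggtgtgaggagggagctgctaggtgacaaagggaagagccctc
The aligned stretches matched at 88.3% of 162 columns, and each held GAGGAAGT once. On either strand, the same 8 letters occurred in 3.2% of all 32851 promoter windows, which run from 250 bases before to 50 after a start. A match of letters is a description and not a binding site.

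In the Marfan library, Ly6c2 was at 1051 CPM (UMIs scaled to counts per 1000000 UMIs of the class) in the monocytes and at 1.456 CPM in non-myeloid cells, those under 5 adaptor UMIs. The rule asked for Ly6c2 plus Plac8, so the first value was set by the choice. Ly6c1, which the rule did not use, was at 11.67 CPM in the monocytes and 154 CPM in the non-myeloid cells. Ly6c1 UMIs were found in 5.88% of the monocytes and 21.9% of the non-myeloid cells. At a fixed 2000 UMIs per cell the Ly6c1 shares were 2.99% and 12.8%. Median depths were 9301.5 UMIs in the monocytes and 10512 in the non-myeloid cells. The Ly6c1 level was thus lower in the monocytes than in the non-myeloid cells.

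The monocytes were nearly all in 1 library. They numbered 7 in the Klf4-floxed Marfan library, 136 in the Marfan library and 3 in the control library. Those were 0.112% (exact interval 0.0449 to 0.23%) of 6263 kept Klf4-floxed Marfan barcodes, 1.91% (1.61 to 2.26%) of 7105 Marfan barcodes and 0.0665% (0.0137 to 0.194%) of 4510 control barcodes. The Marfan share was 28.8-fold the control share (interval 9.64 to 141), and the Klf4-floxed Marfan share was 0.0584 of the Marfan share (0.023 to 0.124). Klf4-floxed Marfan and control did not differ beyond counting error, at a ratio of 1.68 with an interval of 0.384 to 10.1. The 3 ratios share libraries and are not independent of each other.

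The difference held among myeloid barcodes alone, where stromal cells play no part in the denominator. Monocytes were 0.744% of 941 Klf4-floxed Marfan, 8.55% of 1591 Marfan and 0.68% of 441 control barcodes with at least 5 adaptor UMIs. The Marfan share of myeloid barcodes was 12.6-fold the control share (4.21 to 61.7). Beside each 100 C1q-high macrophages there were 0.791 monocytes in the Klf4-floxed Marfan library, 11.4 in the Marfan library and 0.732 in the control library. The macrophages themselves numbered 885, 1198 and 410 in that order. The macrophage class was thus present in all 3 libraries, while the monocyte class was close to absent in the Klf4-floxed Marfan and control libraries.

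Another blood cell class moved with the monocytes. Neutrophils numbered 3 in the Klf4-floxed Marfan library, 161 in the Marfan library and 7 in the control library. Dendritic cells numbered 22, 40 and 9 in that order, a smaller spread. Over all kept barcodes, erythroid genes summed to 21.9 CPM in the Klf4-floxed Marfan library, 72.3 CPM in the Marfan library and 21.7 CPM in the control library. In that order, platelet genes summed to 7.36, 5.74 and 8.19 CPM and B cell genes to 304, 193 and 229 CPM, both lowest in Marfan. Natural killer and T cell genes summed to 6.51, 11.5 and 3.81 CPM, highest in Marfan. The part that blood left in the vessels had in the monocyte numbers was not tested. Cell numbers per animal cannot be read from combined aortas either.

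**Figure D1:**
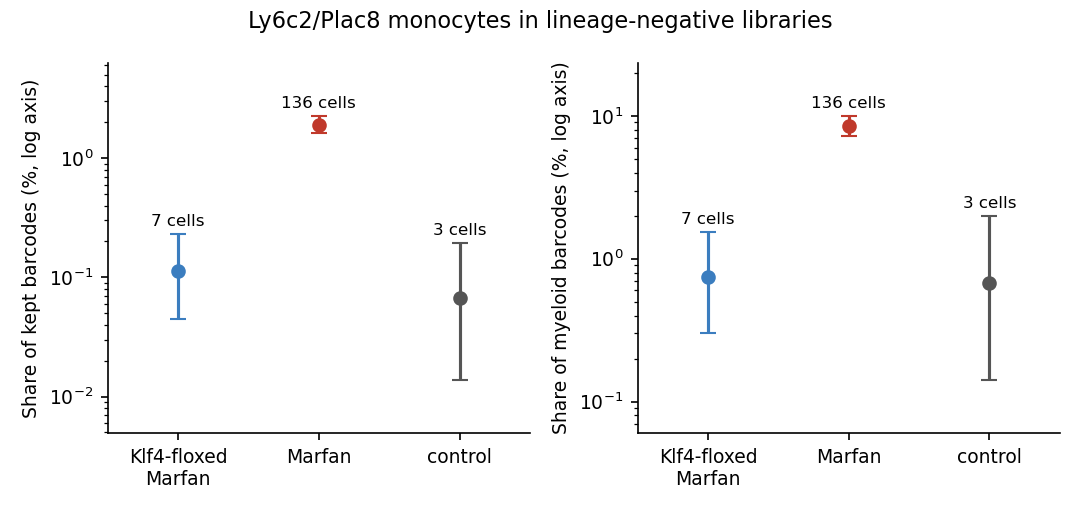
Monocytes as a percentage of kept barcodes and of myeloid barcodes in the lineage-negative libraries, in the order Klf4-floxed Marfan, Marfan, control, on log axes. Points are single libraries and bars are exact 95% intervals for counting error. The Marfan point (1.91% of kept barcodes) lies above the intervals of both other libraries.

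Depth was alike in the 3 libraries. They held 70598538 UMIs in 7088 barcodes in Klf4-floxed Marfan, 81181913 in 7879 in Marfan and 47750360 in 5167 in control. Kept barcodes had a median of 10374 UMIs in the Klf4-floxed Marfan library, 10225 in the Marfan library and 9968.5 in the control library. When every barcode was first thinned to 2000 UMIs, the rule found 5 monocytes in the Klf4-floxed Marfan library, 111 in the Marfan library and 0 in the control library. Of the 136 Marfan monocytes, 2 carried a barcode that was also present in another library, kept there or not, against 1.34% of all kept Marfan barcodes. None of the other 10 monocytes did. The SMC-lineage libraries held 0 such cells among 6349 Klf4-floxed Marfan, 12100 Marfan and 5432 control barcodes, which allows shares of up to 0.0473%, 0.0248% and 0.0552%.

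The monocytes themselves had a median of 8881 UMIs in the Klf4-floxed Marfan library, 9301.5 in the Marfan library and 22378 in the control library. Few cells lay at the edges of the rule. In the Marfan library 5 members had exactly 3 UMIs of Ly6c2 plus Plac8, and 8 barcodes that met every other condition had 2. For C1q, 3 members had 4 UMIs, 3 otherwise eligible barcodes had 5, and 83 had more than 8. For Cd209a plus Flt3, 6 members had 1 UMI and 3 otherwise eligible barcodes had 2. The median Marfan monocyte held 52.5 UMIs of Tyrobp plus Fcer1g (range 5 to 131), 19 of Ly6c2 plus Plac8 (3 to 137) and 1 of C1q (0 to 4).

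The lists of cell type genes were chosen with earlier results of these data known. They describe the members and do not test the name monocyte. The classical monocyte list holds 19 genes outside the rule. Of these, 18 had UMIs in the Klf4-floxed Marfan monocytes, 18 in the Marfan monocytes and 16 in the control monocytes, and Ly6a2 was at 0 throughout. Lyz2, a gene of all phagocytes, made up a large part of the list's sum in each library. It was at 11850 CPM in the Klf4-floxed Marfan and 6610 CPM in the control monocytes. The list summed to 19600 CPM in the Klf4-floxed Marfan monocytes, 19300 CPM in the Marfan monocytes and 11700 CPM in the control monocytes. Genes of non-classical, patrolling monocytes summed to 1500, 965 and 1180 CPM in that order. The resident macrophage markers Cd163, Timd4 and Cd209f were at 0 in all 146 cells, and so were the neutrophil granule genes Camp and Ngp, the T cell genes Cd3d, Cd3e and Cd3g and the B cell genes Cd79a and Ms4a1. The whole lists of other types were not empty. In the same order of libraries, resident macrophage genes summed to 557, 686 and 276 CPM, neutrophil genes summed to 209, 253 and 129 CPM, and dendritic genes to 237, 104 and 387 CPM. Fibroblast genes summed to 2810, 3410 and 11700 CPM, the last mostly from 1 control cell described further on.

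Ccr2, the receptor that brings monocytes out of marrow and into tissue, was at 431.6 CPM (293 to 613) in the Klf4-floxed Marfan monocytes, 479.3 CPM (442 to 519) in the Marfan monocytes and 497.1 CPM (328 to 723) in the control monocytes. The 3 intervals overlapped. In the Marfan library Ccr2 was at 479.3 CPM in the monocytes, 134.1 CPM in macrophages, 327.1 CPM in dendritic cells and 18.92 CPM in neutrophils. UMIs of Ccr2 were found in 77.2% of the Marfan monocytes and 1.05% of non-myeloid cells, or in 48.5% and 0.283% at 2000 UMIs per cell. The 2 genes of the rule were less even. Plac8 was at 4010 CPM in the Klf4-floxed Marfan monocytes, 2110 CPM in the Marfan monocytes and 2449 CPM in the control monocytes, while Ly6c2 was at 1016, 1051 and 165.7 CPM in that order.

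Klf4 encodes a transcription factor that monocytes themselves use and that the study deleted in SMCs. It was at 375.9 CPM (248 to 547) in the Klf4-floxed Marfan monocytes, 334.6 CPM (304 to 368) in the Marfan monocytes and 110.5 CPM (40.5 to 240) in the control monocytes. The Klf4-floxed Marfan value rests on 27 UMIs in 7 cells, and each of those cells had between 1 and 11. The control value rests on 6 UMIs. A 3' tag need not lie in the deleted part of the gene, so these values do not check the labels or show what happened to the allele. Within the Marfan library Klf4 was at similar levels in monocytes (334.6 CPM), macrophages (298.4 CPM) and non-myeloid cells (262.6 CPM). Its level in neutrophils was lower, at 90.41 CPM. TDT, an added feature that appears to stand for the tdTomato reporter, was at 3.891 CPM in the Marfan monocytes, from 5 UMIs.

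The 136 Marfan monocytes were deep enough to be described across genes. They held 1285134 UMIs, and macrophages of the same library, from the same combined animals and the same capture, are the nearest class to set them against. The comparison took 2737 genes with a mean of at least 50 CPM over both classes, leaving out genes of the rule, and counted a gene as apart at 2-fold. In the monocytes 188 genes (6.87%) were higher and 171 genes (6.25%) were lower, with a median log2 difference of 0.05. Since cells were sorted into classes on genes of the same cells, these differences are a description of what the classes held, not a test.

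Most classical monocyte genes were higher in the monocytes. Of 17 list genes measured, 13 were at least 2-fold higher in monocytes and 2 were lower, with a median log2 difference of 2.32. Chil3, a chitinase-like protein secreted by young classical monocytes and neutrophils, was at 662.2 CPM in monocytes against 16.09 CPM in macrophages, a log2 difference of 5.36 (5.15 to 5.58). Hp, haptoglobin, was at 319.8 CPM in monocytes against 10.24 CPM in macrophages (log2 difference 4.97). Ms4a4c, a membrane protein of the MS4A family, was at 1228 against 168.5 CPM (log2 difference 2.87). Vcan, the matrix proteoglycan versican, was at 492.6 against 23.54 CPM (log2 difference 4.39). Lyz2, lysozyme of all phagocytes, did not part them, with 8922 CPM in monocytes and 8507 CPM in macrophages. F13a1, the coagulation factor XIII subunit listed as a monocyte gene, was instead lower in monocytes, at a log2 difference of -1.34, and so was Csf1r, the receptor of the macrophage growth factor CSF1, at -1.23.

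Macrophage genes were lower as a group. Of 10 resident macrophage genes measured, 0 were higher and 9 lower, with a median log2 difference of -3.93, and of 11 mature macrophage genes 0 were higher and 8 lower, with a median of -1.43. Lyve1, the hyaluronan receptor of perivascular macrophages, was at 3.113 CPM in monocytes against 374.6 CPM in macrophages. Folr2, a folate receptor, was at 9.338 against 296.8 CPM, and Mrc1, the mannose receptor, at 77.81 against 802.9 CPM. Ccl8, a chemokine of resident macrophages, was at 11.67 against 656.5 CPM. Apoe, the lipid carrier of lipid-handling macrophages, was at 5402 CPM in monocytes against 14600 CPM in macrophages, so it was lower but still abundant. In the non-classical list 0 of 7 measured genes were higher and 4 were lower, Cx3cr1 among them at a log2 difference of -1.80.

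Interferon-induced genes were high in the monocytes. Of 32 measured, 19 were at least 2-fold higher in monocytes, 0 were lower and the median log2 difference was 1.14. Isg15, a ubiquitin-like protein made under interferon, was at 1272 CPM in monocytes against 339 CPM in macrophages (log2 difference 1.91). Rsad2, the antiviral enzyme viperin, differed by 2.12, and Irf7, the factor that amplifies interferon genes, by 1.64. Slfn4, a schlafen of myeloid cells, was at 556.4 CPM in monocytes, 49.43 CPM in macrophages and 4102 CPM in neutrophils. Ifitm1 and Ifitm6, membrane proteins of a family that blocks virus entry, differed by 4.17 and 3.73. Neutrophils in the same library held more of several of these genes, with Isg15 at 3638 CPM. Retnlg, a gene of neutrophils, was at 5.447 CPM in the monocytes against 2563 CPM in neutrophils. The rule had left out cells rich in the neutrophil genes S100a8 and S100a9. Whether neutrophil RNA had a part in the levels of the interferon-induced genes was not tested.

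Cytokine genes went both ways. Of 23 measured, 7 were higher and 5 lower in monocytes, with a median log2 difference of 0.19 that ran from -0.02 to 0.59 over the alternative settings. Il1b, the inflammasome-processed cytokine, was at 3113 CPM in monocytes, 1259 CPM in macrophages and 18700 CPM in neutrophils. Il1rn, the antagonist of its receptor, was higher by a log2 difference of 2.32, and Osm, oncostatin M, by 2.39. Ccl2, the ligand of CCR2, was at 2019 CPM in monocytes against 1280 CPM in macrophages. Cxcl2, which draws neutrophils, was lower, at 2045 CPM in monocytes against 3529 CPM in macrophages. Cxcl9 (log2 difference -3.03), Ccl5 (-3.53) and Cxcl1 (-3.20) were also lower in monocytes.

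Some matrix and protease genes were higher in monocytes. Of 18 matrix and protease genes measured, 9 were higher and 1 was lower, with a median log2 difference of 1.01. The abundant lysosomal protease genes Ctsb (log2 difference -0.60) and Ctss (-0.11) were not among the higher ones. Thbs1, thrombospondin-1, a matricellular protein that activates latent TGF-beta, was at 1593 CPM in monocytes against 123.2 CPM in macrophages (log2 difference 3.69, interval 3.60 to 3.79). Spp1, osteopontin, was at 2952 against 269.1 CPM (3.46). Fn1, fibronectin, differed by a log2 value of 2.32, Adam8, a membrane protease, by 2.89, and Tgfbi, a matrix protein induced by TGF-beta, by 1.20. Plaur, the receptor that holds urokinase at the cell surface, was at 482.4 CPM in monocytes against 60.83 CPM in macrophages (2.99). Stromal cells also express matrix genes, and Mgp, the leading stromal gene at 30100 CPM in non-myeloid cells, was at 2453 CPM in monocytes and 2656 CPM in macrophages. Genes of the fibroblast list were higher in monocytes by a median log2 difference of 0.52, with 0 of 8 measured at 2-fold. That median ran from -1.83 to 0.77 over the alternative settings. The list summed to 3410 CPM in monocytes against 2150 CPM in macrophages. Outside that list, the stromal gene Ccdc80 differed by 1.72 and Comp, a cartilage matrix protein, by 1.63. The part of stromal RNA in the matrix genes was not tested. In non-myeloid cells Spp1 was at 2172 CPM, Thbs1 at 491.6 CPM and Vcan at 457.7 CPM. In neutrophils, Spp1 was at 2223 CPM and Thbs1 at 1918 CPM, so neither gene was particular to the monocytes.

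Arg1, arginase 1, was at 694.9 CPM in monocytes against 68.95 CPM in macrophages (log2 difference 3.33), and at 0.4116 CPM in non-myeloid cells. Genes of glycolysis and low oxygen were higher as a group, with 9 of 14 measured higher, 0 lower and a median of 1.23. Vegfa, the endothelial growth factor, was at 218.7 against 20.84 CPM (3.39), Pgk1 and Pkm, enzymes of lower glycolysis, differed by 1.49 and 1.51, and Eno1, enolase, by 1.49. Genes of oxidative phosphorylation stayed level, with 0 of 20 apart in either direction and a median of 0.12. Among S100 and annexin genes, which encode calcium-binding proteins, 5 of 10 were higher and 0 lower. S100a11 differed by 2.09, Anxa2 by 1.89, and S100a6 by 1.87.

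Antigen presentation split by class. All 6 measured genes of MHC class II, which presents antigen to helper T cells, were lower in monocytes, with a median log2 difference of -1.69, or -3.92 without the class II-rich monocytes described further on. H2-Ab1 differed by -1.72, H2-Aa by -1.98 and H2-Eb1 by -2.13. Of 13 genes of MHC class I, carried by nearly all cells, 0 were higher and 0 lower, and the median was -0.06. Pattern and Fc receptors went both ways, with 7 of 19 higher and 3 lower. Clec4e and Clec4d, lectins that sense mycobacterial and damaged-cell lipids, were the higher kind, at log2 differences of 3.24 and 2.88. Of 26 transcription factors measured, 2 were higher and 4 lower, Maf, a macrophage factor, among the lower ones at -1.75.

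**Figure D2:**
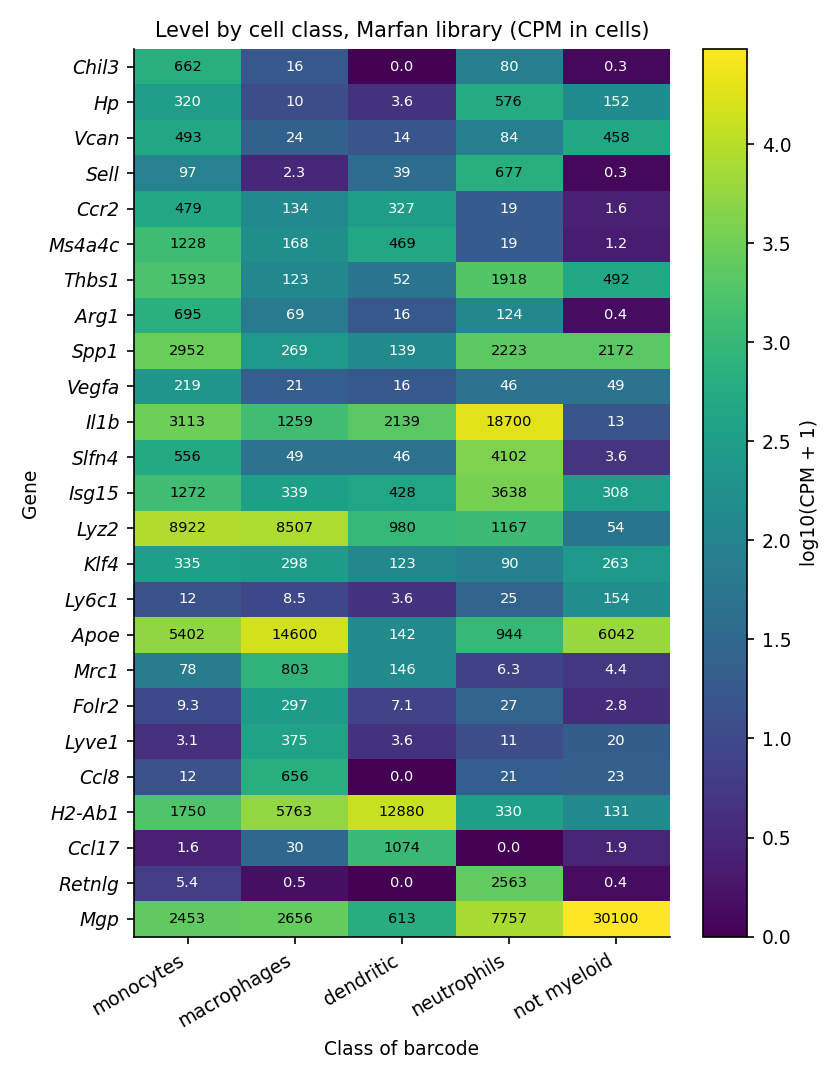
Heat map of the level of 25 genes (log10 of CPM plus 1, colour) in 5 cell classes of the Marfan lineage-negative library: monocytes, macrophages, dendritic cells, neutrophils and cells that are not myeloid. Each column is 1 class summed over its cells and the CPM is printed in each field. Of the 5 classes, Chil3 (662.2 CPM), Ccr2 and Arg1 are highest in the monocytes, Lyve1 in macrophages and Retnlg in neutrophils.

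**Figure D3:**
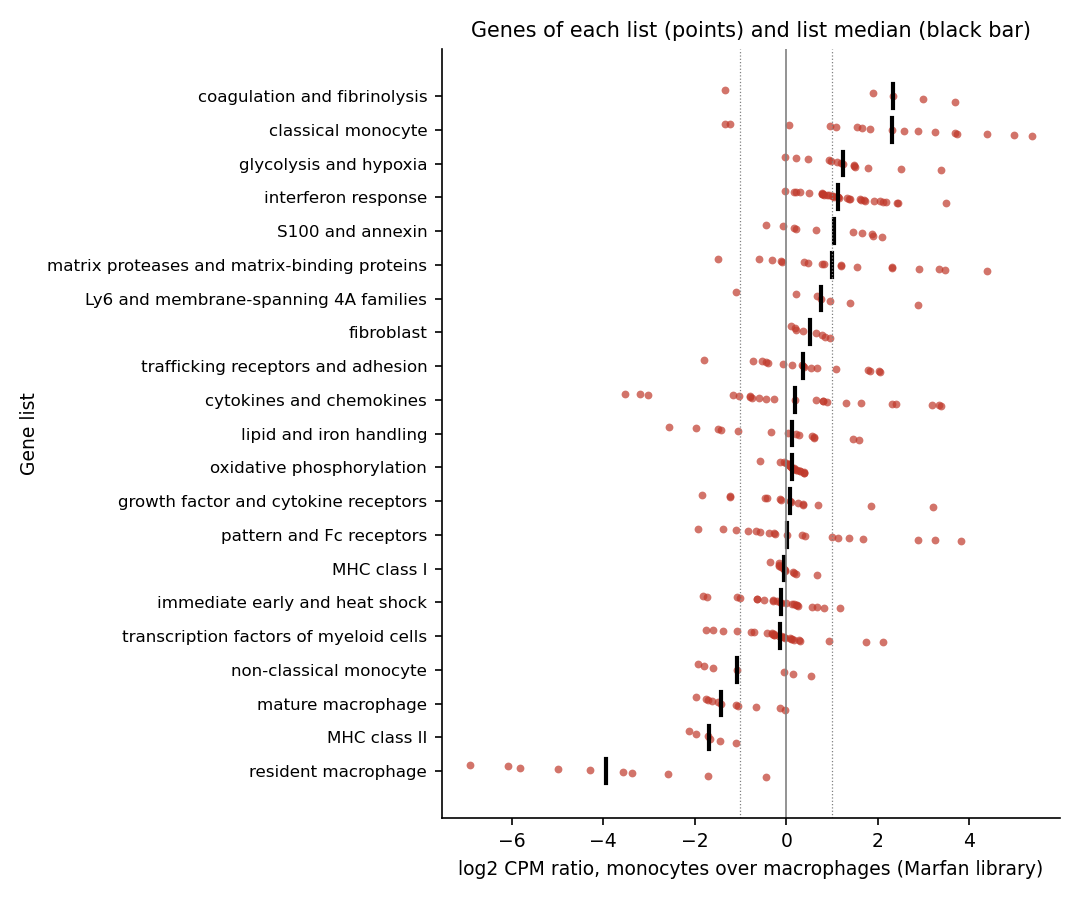
Log2 ratio of CPM in monocytes over macrophages of the Marfan library (horizontal axis) for the measured genes of each gene list (rows). Points are genes, bars are list medians and dotted lines mark 2-fold. Classical monocyte genes lie to the right (median 2.32) and resident macrophage genes to the left (median -3.93).

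Against the neutrophils and dendritic cells of the Marfan library the monocytes differed by other genes. Retnlg, Stfa2l1 and Lcn2, genes of neutrophils, were at 5.447, 4.669 and 11.67 CPM in monocytes against 2563, 1049 and 763.3 CPM in neutrophils. Ms4a4c and Msr1, a scavenger receptor, were at 1228 and 315.1 CPM in monocytes against 18.92 and 8.411 CPM in neutrophils. Ccl17 and Mgl2, a chemokine and a lectin of dendritic cells, were at 1.556 and 5.447 CPM in monocytes against 1074 and 865.9 CPM in dendritic cells. Chil3 and Ms4a7 were at 662.2 and 456 CPM in monocytes and at 0 in the 40 dendritic cells, log2 differences of at least 6.96 and 6.42 with the dendritic cells set at a floor of 3 UMIs over the class. These genes were named for their large differences. The classes were cut on other genes of the same cells, so this is a description and not a test. Summed over their cells, the members differed from each neighbour in these genes. Single members need not have done so. Some shallow members, such as those of 2405, 3044 and 3391 UMIs, held 68, 85 and 81 UMIs of Il1b and 0 of Ccr2. Il1b was higher in neutrophils than in monocytes, and the median neutrophil had 2568 UMIs. Whether such members were neutrophils was not tested.

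Some of the leading genes were also higher in the monocytes of the small libraries than in their own macrophages. These genes were ranked on the lowest of the 3 ratios, so the likeness of the libraries was part of their choice. Chil3 was higher in monocytes than in macrophages by a log2 difference of 5.93 in the Klf4-floxed Marfan library, 5.36 in the Marfan library and 10.60 in the control library, the last with an interval of 7.93 to 15.99 since control macrophages held 1 Chil3 UMI. Ifitm6 was higher by 3.57, 3.73 and 3.48 in that order. Arg1 and Ifitm1 had 0 UMIs in the Klf4-floxed Marfan and control monocytes, so the Marfan library alone showed them.

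The Marfan monocytes varied among themselves in the genes of the rule. Ly6c2 had 0 UMIs in 31 of 136 cells, 1 or 2 in 18 and at least 3 in 87. Plac8 had 0 UMIs in 8 cells, and both genes were found in 97. Ly6c2 ran from 0 to 97 UMIs per cell with a median of 4, and Plac8 from 0 to 107 with a median of 13. A single cell can read 0 of a transcript it holds, so a cell at 0 is not shown to lack it.

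Other genes followed the Ly6c2 count. In Marfan monocytes with at least 3, with 1 or 2, and with 0 Ly6c2 UMIs, Hp was at 459.3, 183.5 and 60.4 CPM, Chil3 at 860.4, 543.7 and 261.8 CPM, and Lyz2 at 11000, 8651 and 4315 CPM. Ccr2 changed less, at 571.9, 421.3 and 293.4 CPM. The classical list summed to 22700, 18200 and 12200 CPM in the same order. Genes of MHC class II went the other way at the far end, at 6390, 3920 and 22300 CPM. Fibroblast genes summed to 2040, 4420 and 6090 CPM, so stromal RNA was also highest where Ly6c2 was not found, and its part was not tested.

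**Figure D4:**
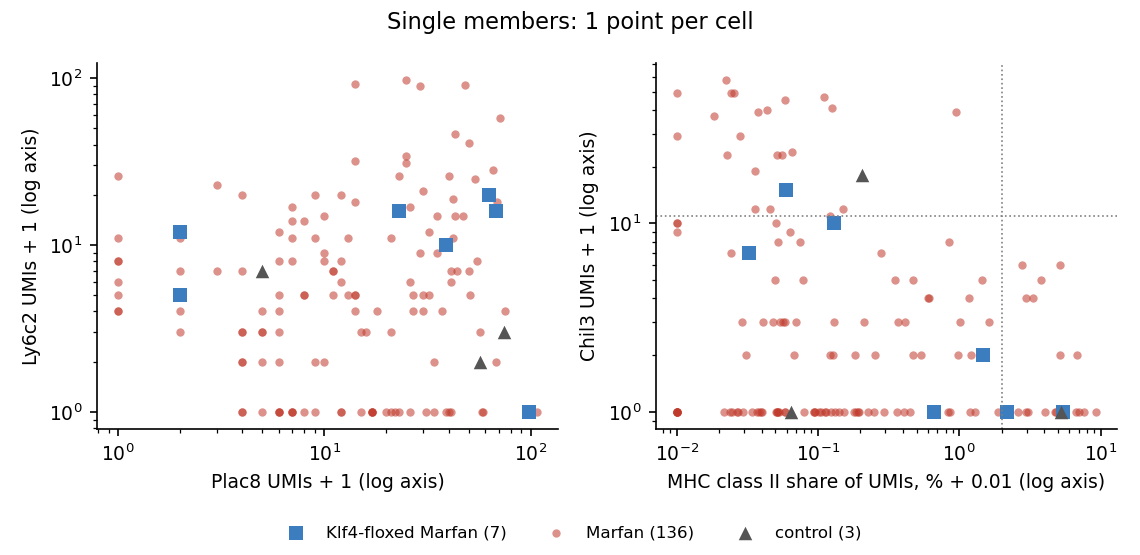
Single monocytes of the 3 libraries (colours in the order Klf4-floxed Marfan, Marfan, control): on the left Plac8 against Ly6c2 in UMIs per cell, on the right the share of UMIs from 4 MHC class II genes against Chil3 UMIs, with dotted lines at 2% and at 10 UMIs. All axes are log axes after adding 1 UMI or 0.01%. In the Marfan library 31 cells lie at 0 Ly6c2, and no cell lies beyond both dotted lines.

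At the thresholds used here, no Marfan monocyte held both much MHC class II RNA and much Chil3 RNA. H2-Aa, H2-Ab1, H2-Eb1 and Cd74 together took between 0 and 9.26% of a Marfan monocyte's UMIs, with a median of 0.104%. At 2% or more were 21 of 136 monocytes, against 655 of 1198 macrophages and 39 of 40 dendritic cells. Chil3 ran from 0 to 57 UMIs per cell with a median of 1, and 22 cells had at least 10. None of those 22 was among the 21 with high MHC class II. A further set of 30 cells had at least 5 UMIs of Ms4a7, a membrane protein of macrophages, and overlapped the MHC class II cells in 3 and the Chil3 cells in 2. Sets of this size share few of 136 cells even when unrelated, so the overlaps are not read as a result. These thresholds were set after the values were seen, so the sets are only a way to describe the spread. Giving each cell to the first set it met, in the order named, left 21 class II-rich, 22 Chil3-rich, 25 Ms4a7-rich and 68 other cells.

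The Chil3-rich cells held the most genes of classical monocytes. The list, which includes Chil3, summed to 30000 CPM in Chil3-rich cells, 20200 CPM in the other cells, 14800 CPM in Ms4a7-rich and 11500 CPM in class II-rich cells. Vcan was at 1234 CPM in Chil3-rich cells, against 518.6 CPM in the other, 37.98 CPM in Ms4a7-rich and 179.1 CPM in class II-rich cells. Hp was at 643.9 CPM in Chil3-rich cells and at 16.88 CPM in Ms4a7-rich cells. Slpi, an inhibitor of neutrophil elastase, was at 1028 CPM in Chil3-rich, 681.3 CPM in other, 198.3 CPM in Ms4a7-rich and 34.12 CPM in class II-rich cells.

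The Ms4a7-rich cells held macrophage genes although C1q was under the limit in all of them. The mature macrophage list, which includes Ms4a7, summed to 12300 CPM in these cells, against 7350 CPM in Chil3-rich, 7350 CPM in other and 5460 CPM in class II-rich cells. Ccl12, a CCR2 ligand of the mouse, was at 2773 CPM in Ms4a7-rich cells against 62.6 CPM in Chil3-rich cells. Trem2, a lipid receptor of macrophages, was at 388.3 against 58.13 CPM. Arg1 was at 1460 CPM in Ms4a7-rich cells, 820.2 CPM in other, 277.2 CPM in Chil3-rich and 4.265 CPM in class II-rich cells. Spp1 was at 5360 CPM in Ms4a7-rich cells, and also at 3796 CPM in class II-rich cells. The fibroblast list was lowest in the Ms4a7-rich cells, at 760 CPM, against 4550 CPM in Chil3-rich, 3680 CPM in other and 4320 CPM in class II-rich cells.

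The class II-rich cells held less of the rule's genes and fewer cytokines. Their Ly6c2 was at 559 CPM, against 1203 CPM in Chil3-rich, 1144 CPM in Ms4a7-rich and 1152 CPM in other cells. Their cytokine list summed to 6250 CPM, against 16300, 18100 and 17200 CPM in that order, and Ccl2 was at 575.8 CPM, against 3707, 3271 and 1451 CPM. Ccr2 was alike in all 4 sets, between 422 CPM in the Ms4a7-rich cells and 505 CPM in the Chil3-rich ones. In the largest set, the 68 other cells, the interferon list summed to 14400 CPM, against 15700 CPM in Ms4a7-rich, 13800 CPM in Chil3-rich and 10100 CPM in class II-rich cells. A pair of interferon-induced genes, picked after their values were seen, were highest in the other cells: Cxcl10, a chemokine induced by interferon, was at 1195 CPM there against 164.6 CPM or less in the rest, and Rsad2 was at 816.8 CPM against 177.2 CPM or less. Median depths were 10322 UMIs in class II-rich, 9515 in Chil3-rich, 9529 in Ms4a7-rich and 8235 in other cells.

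**Figure D5:**
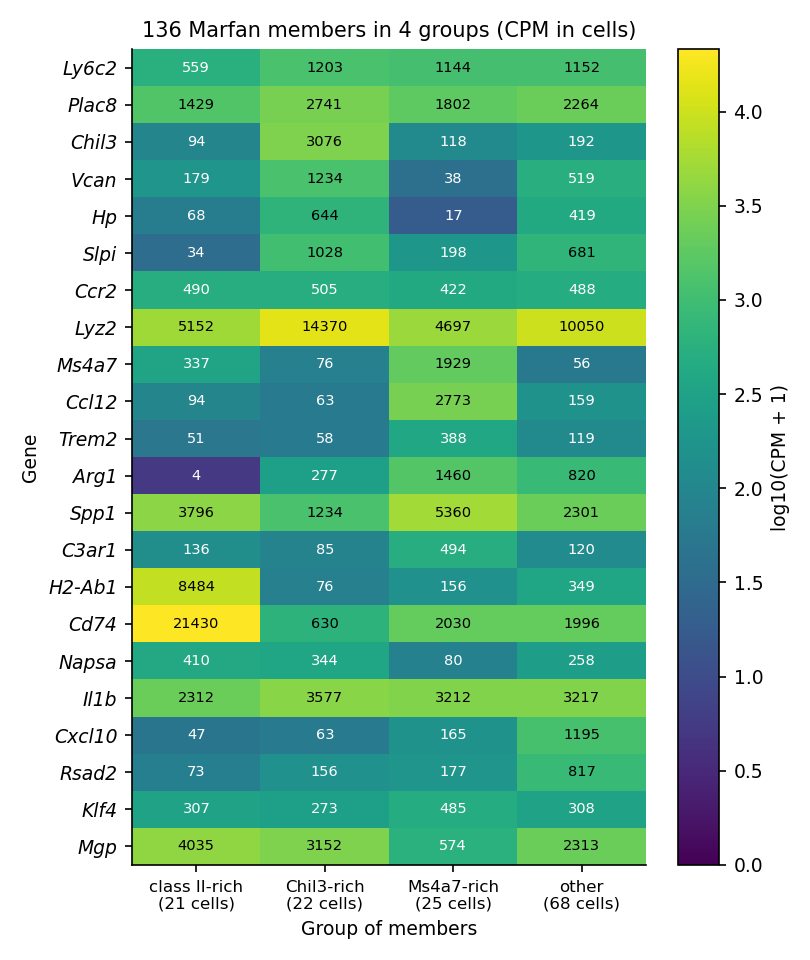
Heat map of the level of chosen genes (log10 of CPM plus 1, colour, with the CPM printed in each field) in the 136 Marfan monocytes split into class II-rich (21), Chil3-rich (22), Ms4a7-rich (25) and other (68) cells by thresholds set after the values were seen. Each column is 1 set summed over its cells. Vcan and Hp are highest in Chil3-rich cells, and Ccl12 and Trem2 in Ms4a7-rich cells.

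Some members held RNA of other cell types. At least 3 UMIs of resident macrophage genes were in 76 of the 136 Marfan monocytes, with up to 74 in a cell, of neutrophil genes in 31 and of dendritic cell genes in 21. In the Klf4-floxed Marfan monocytes 6 of 7 held at least 3 UMIs of resident macrophage genes, and in the control monocytes 1 of 3 did. At least 3 UMIs of natural killer or T cell genes were in 6 of the 136 Marfan monocytes, of B cell genes in 3, of basophil or mast cell genes in 3, and of plasmacytoid dendritic cell genes in 31. At least 1% of UMIs came from fibroblast, SMC and endothelial genes in 10 Marfan monocytes, in 0 of 7 Klf4-floxed Marfan and in 1 of 3 control monocytes. A single Marfan member held 22 UMIs of Siglech, 7 of Ccr9, 39 of Ly6d and 41 of Irf8, genes that mark plasmacytoid dendritic cells, beside 20 of Ly6c2 and 29 of Plac8, genes those cells also express. It was the only member with Siglech in the Marfan library. The control monocyte of 22378 UMIs held 3 Siglech UMIs. At least 3 UMIs of plasmacytoid dendritic cell genes were in 2 of 3 control and 0 of 7 Klf4-floxed Marfan monocytes. For dendritic cell genes these numbers were 1 of 3 and 4 of 7.

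The control monocytes were 3 unlike cells. The first, of 8177 UMIs, had 3.52% of its UMIs from classical monocyte genes, with 20 UMIs of Ccr2, 17 of Chil3 and 152 of Lyz2. The next, of 22378 UMIs, had 0.0626% from classical genes and 5.28% from MHC class II, with 1 UMI of Lyz2, 278 of H2-Ab1 and 21 UMIs over the dendritic list. The last, of 23760 UMIs, had 206 UMIs of Lyz2 but also 29 of Col1a1, the chain of fibrillar collagen, and 2.59% of its UMIs from stromal genes. Summed control levels are the levels of these 3 cells, and the deeper pair outweigh the first.

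The 7 Klf4-floxed Marfan monocytes were also mixed. In order of depth, 5903 to 19959 UMIs, Ly6c2 had 15, 9, 15, 19, 0, 4 and 11 UMIs and Plac8 had 22, 38, 67, 62, 97, 1 and 1. Chil3 had 9, 14, 0, 6, 1, 0 and 0 UMIs in the same cells. MHC class II took 0.119, 0.0492, 0.652, 0.0225, 1.46, 5.41 and 2.15% of UMIs. With 7 cells, no relation of Chil3 to class II is read from these values. The 2 deepest cells, at 13120 and 19959 UMIs, held least of the classical list, at 0.229 and 0.731% of UMIs. The cell of 13120 UMIs had 1 UMI of Lyz2 and 155 of H2-Ab1.

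With such numbers, differences between libraries within the monocytes describe these cells only. Between Marfan and control, 207 of 786 genes (26.3%) were at least 2-fold higher in Marfan and 34 (4.33%) lower, with a median log2 difference of 0.32 that became 0.80 with median-of-ratios scaling. Between Klf4-floxed Marfan and Marfan, 16 of 1067 genes (1.5%) were higher and 168 (15.7%) lower in Klf4-floxed Marfan, with a median of -0.17. Between Klf4-floxed Marfan and control, 110 of 705 (15.6%) were higher and 80 (11.3%) lower, with a median of 0.10. Each library enters 2 of these comparisons. To be compared, a gene needed at least 10 UMIs expected in the smaller sum at the rate of both libraries pooled. The Marfan monocytes held 1285134 UMIs, against 71827 in Klf4-floxed Marfan and 54315 in control, so they mostly set that rate. Genes high only in the smaller library could thus fail to enter. The lean of counts toward Marfan, also in the gene lists below, was partly set by this filter and is not read as a result. Without the members that held RNA of other types, which leaves 2 control cells, the Marfan count above control was 133 in place of 207. With fewer control UMIs fewer genes can pass the filter, so these counts are not shares of the same set.

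Most cytokine and chemokine genes that passed the filter differed between the libraries. Between Marfan and control, 16 of 17 measured were higher in Marfan and 0 lower, with a median log2 difference of 2.44 (2.31 to 3.07 over the alternative settings). Between Klf4-floxed Marfan and Marfan, 2 of 18 were higher and 14 lower in Klf4-floxed Marfan, with a median of -2.16 (-2.87 to -1.94). Which genes entered followed mostly their Marfan level, so the lean of these counts is not read as a result. Ccl2 was at 69.61 CPM in the Klf4-floxed Marfan monocytes, 2019 CPM in the Marfan monocytes and 0 in the control monocytes, which puts Marfan above control by a log2 difference of at least 5.19 with control set at a floor of 3 UMIs over its cells. Il1b was closer, at 1935, 3113 and 1086 CPM in that order. The Klf4-floxed Marfan value came from 139 Il1b UMIs, of which 86 and 37 lay in 2 cells and 0 in 3 others, and the cell with 86 had 5.41% of its UMIs from MHC class II. Cxcl9 and Cxcl10, chemokines induced by interferon-gamma, went the other way in the Klf4-floxed Marfan cells. In the same order, Cxcl9 was at 765.7, 61.47 and 0 CPM and Cxcl10 at 2005, 598.4 and 18.41 CPM. Cxcl9 did not pass the filter between Klf4-floxed Marfan and Marfan, so it is not among the 18.

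Several matrix and metabolic genes that were higher in Marfan monocytes than in macrophages were lower in the monocytes of the other libraries. Spp1 was at 236.7 CPM in the Klf4-floxed Marfan monocytes, 2952 CPM in the Marfan monocytes and 128.9 CPM in the control monocytes. Thbs1 was at 13.92, 1593 and 736.4 CPM in that order, the first from 1 UMI. Arg1 was at 0, 694.9 and 0 CPM. In C1q-high macrophages the same genes were also highest in the Marfan library, with Arg1 at 0.1106, 68.95 and 0.2014 CPM and Spp1 at 125.4, 269.1 and 33.23 CPM. Glycolysis and low-oxygen genes were higher in Marfan than in control in 7 of 10 measured and lower in 0, and lower in Klf4-floxed Marfan than in Marfan in 8 of 10 and higher in 0. Of oxidative phosphorylation genes 0 of 14 and 0 of 16 were apart. Their median between Marfan and control was 0.16, and between -0.12 and 0.71 under other settings, with both ends set by the scaling. The interferon list was higher in Marfan than in control in 14 of 16 measured, with a median of 1.84. Between Klf4-floxed Marfan and Marfan its median was -0.22, with 2 of 21 higher and 6 lower, and from -0.36 to 0.13 under other settings. For these lists too, which genes entered followed mostly their Marfan level.

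Some lists ran against that. Genes of MHC class II were lower in Marfan than in control in 3 of 5 measured, with a median of -1.39, and higher in Klf4-floxed Marfan than in Marfan in 3 of 6, with a median of 1.06. The share of class II-rich cells was 2 of 7 in Klf4-floxed Marfan, 21 of 136 in Marfan and 1 of 3 in control, so the summed levels move with single cells. Fibroblast genes were lower in Marfan than in control in 5 of 5 measured, and the stromal genes Igfbp7 and Bgn turned to higher in Marfan (log2 differences of 1.84 and 2.05) once members with RNA of other types, the control cell with 2.59% stromal UMIs among them, were left out. Mgp was at 16600 CPM in the Klf4-floxed Marfan monocytes, 2453 CPM in the Marfan monocytes and 7733 CPM in the control monocytes. Its log2 difference between Klf4-floxed Marfan and Marfan was 2.76 and became -0.26 when doublet-like barcodes were removed, 1 of the 7 Klf4-floxed Marfan monocytes among them.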

How the data were processed

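Counts were the authors' deposited values: raw UMIs per gene and barcode from Cell Ranger 6.1.2, per the file headers, aligned to mm10 (build per the submitters' processing notes). Which annotation release was used is not given in the sources used here. Each of 6 libraries was placed in its group by its labels. The monocytes and the 32 gene lists were chosen with earlier results of these data known. UMIs were summed over the members of a library and scaled to CPM, counts per 1000000 of all their UMIs. Levels carry exact Poisson intervals, ratios exact conditional binomial ones and shares exact Clopper-Pearson ones, at 95%. Genes entered a comparison with a mean of at least 50 CPM and at least 10 UMIs expected in the smaller sum at the pooled rate. A sum of 0 was set to a floor of 3 UMIs for ratios. Genes apart by 2-fold were counted, with no test. Genes named were the 10 highest and 10 lowest ratios between libraries, the 15 highest and 10 lowest over macrophages, and up to 6 of the most abundant of each list. Others were named after their values were seen, and some genes are not reported here. Classes used the genes of the rule: macrophages had at least 5 C1q UMIs. Doublets were not removed; removal by Scrublet score (scanpy 1.11.5) was an alternative, with other filters, rule limits, thinning to 2000 UMIs and scalings. The code was tested on simulated data. It ran on Python 3.11.15, numpy 2.4.6, pandas 2.3.3 and scipy 1.17.1, and sequences were aligned with Biopython 1.88.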

Additional observations from a re-analysis of the deposited data

How the results depend on the processing

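No paired analysis was possible because each group has 1 library per fraction. The excess of monocytes in Marfan held in the alternatives run. The Marfan share became 1.51% of kept and 6.73% of myeloid barcodes with C1q under 2 UMIs, and the control shares became 0 and 0% after thinning to 2000 UMIs, which left no gene comparison with control. The 25 genes named from the ratios of monocytes over macrophages kept their sign in every alternative, as did 15 of 21 list medians; between libraries 17 of 20 named genes for Marfan over control, 18 of 21 for Klf4-floxed Marfan over Marfan and 20 of 21 for Klf4-floxed Marfan over control did, and so did 17 of 18, 12 of 19 and 12 of 16 list medians of these comparisons. With doublet-like barcodes removed (1 Klf4-floxed Marfan, 16 Marfan and 1 control member), 127 genes were higher in Marfan than in control and 33 lower in Klf4-floxed Marfan than in control, and the log2 ratio turned to 1.69 for Igfbp7 and 1.40 for Bgn (Marfan over control) and to -0.26 for Mgp (Klf4-floxed Marfan over Marfan). Without members holding RNA of other types, 133 were higher in Marfan than in control, 67 higher and 28 lower in Klf4-floxed Marfan than in control, and the ratio turned to 1.84 for Igfbp7 and 2.05 for Bgn (Marfan over control) and 0.77 for Comp (Klf4-floxed Marfan over control). Thinned, 8 genes were higher and 29 lower in Klf4-floxed Marfan than in Marfan, with Mgp at -1.94 and Zfp36l1 at 0.93. Without class II-rich members, an alternative chosen after seeing the data, 12 were lower in Marfan than in control, 26 higher and 102 lower in Klf4-floxed Marfan than in Marfan, with Phlda1 at 3.82 (Marfan over control), Mgp at -1.95 and Cst3 at -0.18 (Klf4-floxed Marfan over Marfan). The removals leave fewer cells and can leave fewer genes to compare, so the counts are not shares of the same set. Beyond that the cause was not tested. Counts at the looser filters below also come from more genes. Median-of-ratios scaling moved the median of all genes by 0.48 for Marfan over control and 0.40 for Klf4-floxed Marfan over control. Genes compared then numbered 1106 in place of 786 and 866 in place of 705, in that order. Of these, 469 (94.9% of called genes, against 85.9%) and 241 (77.5%, against 57.9%) were higher. At 20 CPM and 5 UMIs, higher and lower counts were 399 and 79 for Marfan over control, 53 and 387 for Klf4-floxed Marfan over Marfan, 260 and 231 for Klf4-floxed Marfan over control, and 329 and 361 for monocytes over macrophages. With no filter, where the floor of 3 UMIs sets the ratio of genes absent from 1 side, these were 766 and 5283, 4286 and 910, 737 and 1310, and 2424 and 1663. Comparisons between libraries are limited by the 3 control and 7 Klf4-floxed Marfan monocytes.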
